A study of Mus musculus with 8 samples.

Results

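The peaks described here are sites of N6-methyladenosine (m6A) in coding sequence that lie inside long exons other than the last exon of their transcript. They were chosen from the peaks called with the Synaptic Systems (SySy) antibody by position alone: the midpoint had to fall in the coding sequence (CDS) of the longest-CDS transcript of a protein-coding gene, on the peak's strand, more than 200 nt upstream of the stop codon in spliced coordinates, in a non-terminal exon of 400 nt or more. Of 10749 SySy-called peaks, 2794 met the rule (26.0%), out of 17068 peaks in the whole series (16.4%). They lay in 1491 of the 7785 exons that the rule admits (19.2%) and in 1288 of the 6320 genes with such an exon (20.4%).

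RNA bound to chromatin in mouse E14 embryonic stem cells (mESC), grown with leukaemia inhibitory factor and given no treatment in the labels, was immunoprecipitated with an m6A antibody and sequenced (ChrMeRIP-seq). The 8 libraries formed 4 groups of 2 replicates, namely SySy ChrMeRIP with its SySy input, and Abcam ChrMeRIP with its Abcam input, all of the same cells. The deposited lists hold peaks called by the authors on pooled duplicates: Cfg1 (5277 peaks, called with both antibodies), Cfg2 (5472 peaks, called with SySy, with Abcam signal under the threshold) and Cfg3 (6319 peaks, called with Abcam only). The labels give 1 library kit for all 8 libraries, while the study's methods give a different kit for each antibody, and if the kits differed, antibody and kit cannot be told apart. The lists give no value per library, no peak height and no expression level, so the depth is unknown, replicate error was out of reach, and the identity of the cells could not be checked on marker levels. Intervals and p-values below cover counting error only, and peaks of the same gene or exon are not independent replicates.

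m6A is installed on nascent RNA by the METTL3/METTL14 methyltransferase, which works with the adaptors RBM15, VIRMA, WTAP and ZC3H13, and it favours adenosines in a short consensus around a GGAC core. In mature mRNA the mark is known from the neighbourhood of stop codons, from 3' UTRs and from long internal exons, and it is known to be sparse near splice junctions, where the exon junction complex is deposited. It is read in the cytoplasm by the YTHDF proteins and in the nucleus by YTHDC1, and removed by ALKBH5 and FTO.

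The following intervals show what the members look like in sequence. They are whole deposited intervals in mm10 coordinates, read on the transcript strand from the GRCm38.p6 assembly, with each GGACT, the classical m6A consensus pentamer, in capitals. The Ythdf1 and Ythdf2 intervals are shown because these readers' own transcripts carried members in a long internal coding exon, the second Ythdf2 interval because most members held no GGACT, and the others because their genes were among those with the most members.
Ythdf1 exon 5, Cfg2, chr2:180910742-180910991, minus strand: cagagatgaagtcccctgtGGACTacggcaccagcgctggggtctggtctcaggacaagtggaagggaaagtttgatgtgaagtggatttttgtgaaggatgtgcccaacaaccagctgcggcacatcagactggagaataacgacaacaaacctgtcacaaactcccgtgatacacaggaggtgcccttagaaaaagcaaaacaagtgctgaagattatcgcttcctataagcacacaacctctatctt
Ythdf2 exon 4, Cfg1, chr4:132204246-132204465, minus strand: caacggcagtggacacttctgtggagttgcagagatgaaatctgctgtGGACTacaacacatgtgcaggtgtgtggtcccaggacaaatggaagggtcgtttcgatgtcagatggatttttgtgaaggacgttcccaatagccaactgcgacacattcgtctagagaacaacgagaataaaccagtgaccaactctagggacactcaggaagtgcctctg
Ythdf2 exon 4, Cfg1, chr4:132205264-132205445, minus strand: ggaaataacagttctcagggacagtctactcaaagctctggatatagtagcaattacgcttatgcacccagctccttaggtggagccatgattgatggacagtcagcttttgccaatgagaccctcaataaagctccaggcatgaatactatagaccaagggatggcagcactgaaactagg
Rbm15 exon 1, Cfg1, chr3:107331021-107331220, minus strand: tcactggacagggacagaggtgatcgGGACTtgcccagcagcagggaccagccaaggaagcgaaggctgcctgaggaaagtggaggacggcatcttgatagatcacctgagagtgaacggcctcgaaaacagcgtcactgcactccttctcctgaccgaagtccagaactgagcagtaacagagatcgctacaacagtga
Spen exon 12, Cfg1, chr4:141479155-141479343, minus strand: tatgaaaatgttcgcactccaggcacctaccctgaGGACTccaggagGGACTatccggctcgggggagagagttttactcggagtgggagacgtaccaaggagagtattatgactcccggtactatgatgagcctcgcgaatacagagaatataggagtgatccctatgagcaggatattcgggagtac
Rnf213 exon 25, Cfg1, chr11:119435951-119436096, plus strand: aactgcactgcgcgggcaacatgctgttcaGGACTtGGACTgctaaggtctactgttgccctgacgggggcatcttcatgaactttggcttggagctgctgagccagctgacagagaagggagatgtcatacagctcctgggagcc
Pkd1 exon 15, Cfg1, chr17:24575619-24575824, plus strand: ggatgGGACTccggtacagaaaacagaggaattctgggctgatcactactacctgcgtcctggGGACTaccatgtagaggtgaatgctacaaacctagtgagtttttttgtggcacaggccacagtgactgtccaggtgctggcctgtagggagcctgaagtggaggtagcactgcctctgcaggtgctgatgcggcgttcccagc
Tnrc6c exon 5, Cfg1, chr11:117721882-117722083, plus strand: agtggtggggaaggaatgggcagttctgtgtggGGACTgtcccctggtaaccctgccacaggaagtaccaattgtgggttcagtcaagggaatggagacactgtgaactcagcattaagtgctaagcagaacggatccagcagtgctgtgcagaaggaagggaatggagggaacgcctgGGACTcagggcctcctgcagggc

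The first 2 of these lie at like places in paralogous genes. In the Ythdf1 interval the pentamer began at codon 483 of 586, and in the Ythdf2 interval at codon 477 of 579, in each case at position 3 of the codon. Aligned on the pentamer without gaps, the 2 intervals shared 145 of 191 bases (75.9%), and the longest identical run was 17 nt. In the paralogue Ythdf3, the last member had its midpoint at codon 501 of 596 and held no GGACT. The Spen, Rnf213, Pkd1 and Tnrc6c intervals each held 2 GGACT, which almost adjoined in Rnf213.

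Members were more often supported by both antibodies than SySy-called coding peaks of short non-terminal exons. Of the 2794 members, 1695 belonged to Cfg1 (60.7%, 95% Wilson interval 58.8 to 62.5%) and 1099 to Cfg2. In non-terminal exons under 400 nt, 80 of 275 SySy-called coding peaks belonged to Cfg1 (29.1%, 24.0 to 34.7%), a difference of 31.6 percentage points (Newcombe 95% interval 25.7 to 36.9) with an adjusted p of 6.49e-23 in Fisher's exact test, two-sided and adjusted over 8 such tests. In the coding part of last exons the Cfg1 share was 58.5% (746 of 1275), and the difference of 2.16 points (-1.08 to 5.42) did not pass Fisher's exact test (adjusted p = 0.202). The members made up 32.1% of all Cfg1 peaks and 20.1% of all Cfg2 peaks. Cfg1 members were also wider, with a median of 198 nt against 166 nt for Cfg2, where 250 nt is the widest interval that the trimming allows. The Cfg1 share was higher in each longer class of exons up to 700 to 999 nt and differed little from there on. It was 8.96% in exons of 100 to 199 nt (67 peaks), 16 of 84 peaks at 200 to 299 nt, 47.5% at 300 to 399 nt (122 peaks), 56.8% at 400 to 699 nt (662 peaks), 64.2% at 700 to 999 nt (595 peaks), 61.3% at 1000 to 1999 nt (876 peaks) and 60.5% at 2000 nt or more (661 peaks).

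Long exons held most SySy-called peaks in the coding sequence of non-terminal exons, although they are a small part of that sequence. Of 3069 SySy-called coding peaks in non-terminal exons, 91.0% (90.0 to 92.0%) were members, while exons of 400 nt or more make up 4.5% of the non-terminal coding exons and 21.1% of their eligible sequence. The share was 95.5% in Cfg1 and 84.9% in Cfg2, and 69.0% (66.3 to 71.5%) among Abcam-only peaks, of which 835 lay in long and 376 in short exons. Per kb of eligible CDS there were 0.508 SySy-called peaks in long exons (exact Poisson 95% interval 0.490 to 0.528) and 0.0134 in short exons (0.0118 to 0.0151), a ratio of 38.0. For Abcam-only peaks the densities were 0.152 and 0.0183 per kb, a ratio of 8.31. Since exon choice and gene choice go together, the ratio was also taken within the genes that carried a SySy-called peak within 200 nt of the stop codon or in the 3' UTR, whose RNA was therefore within reach of the calling. There the density was 1.07 per kb in long exons and 0.0341 per kb in short exons, a ratio of 31.5. In the same genes the coding part of last exons, beyond 200 nt from the stop codon, held 1.02 peaks per kb (0.953 to 1.10). Long non-terminal exons, first exons included, held 1.07 (1.01 to 1.14). Over all coding genes last exons held 0.245 per kb, and long non-terminal exons held 2.08 times that density. The exon of an unspliced transcript counted as a last exon. The genes with a peak at the stop codon or in the 3' UTR were picked by peaks beside or downstream of the coding part of the last exon. Their last-exon density therefore depends on the choice of genes, and the 2 exon classes cannot be compared there.

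**Figure D1:**
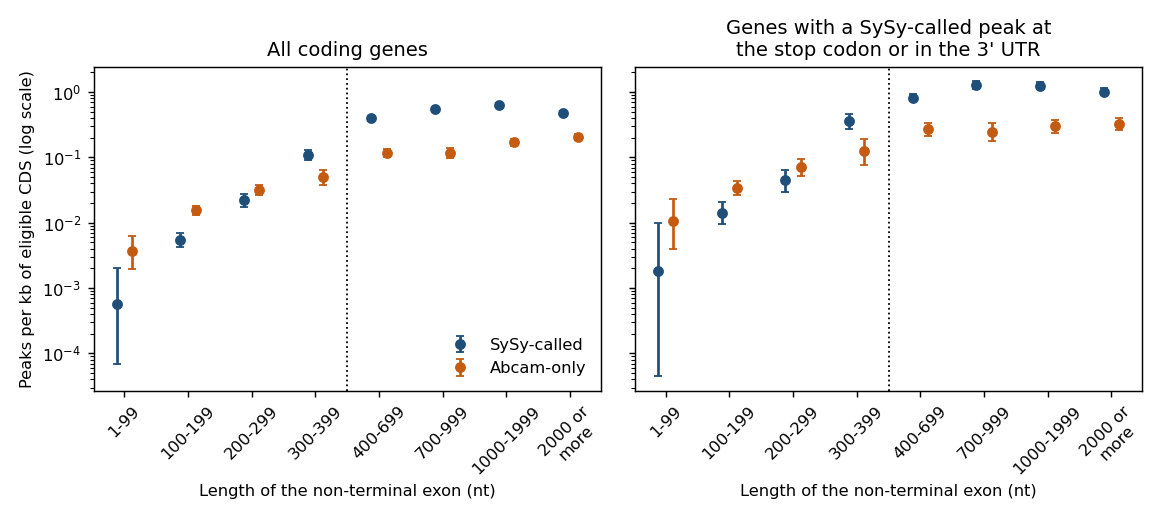
Peaks per kb of eligible CDS (log scale) in non-terminal exons by exon length, for SySy-called and Abcam-only peaks, over all coding genes (left) and over genes with a SySy-called peak at the stop codon or in the 3' UTR (right). Bars are exact Poisson 95% intervals and the dotted line marks the 400 nt of the rule. SySy-called density went from 0.00553 per kb at 100 to 199 nt to 0.644 per kb at 1000 to 1999 nt over all coding genes, and Abcam-only density lay above it below 300 nt and below it above 300 nt.

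Density was higher in each longer class up to 1000 to 1999 nt and lower again beyond. Over all coding genes the SySy-called density was 0.0222 per kb at 200 to 299 nt, 0.110 at 300 to 399 nt (0.0910 to 0.131), 0.395 at 400 to 699 nt (0.366 to 0.426), 0.551 at 700 to 999 nt (0.508 to 0.597), 0.644 at 1000 to 1999 nt (0.602 to 0.688) and 0.479 at 2000 nt or more (0.443 to 0.517). Just outside the rule, exons of 350 to 399 nt held 71 SySy-called peaks, 35 of them in Cfg1, and just inside it exons of 400 to 449 nt held 74, 28 of them in Cfg1. At the other limit of the rule, 13 members had their midpoint 200 to 250 nt upstream of the stop codon. In non-terminal exons of 400 nt or more, 7 SySy-called coding peaks lay 150 to 200 nt upstream. The share of eligible exons that carried a member grew with length throughout, from 11.7% at 400 to 699 nt to 21.4%, 34.3% and 42.1% in the 3 longer classes. 

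The rule set the lower bounds of exon length and stop distance, and within them both varied widely. The host exon had a median length of 1096 nt (quartiles 716 and 1892 nt, longest 17106 nt, exon 309 of Ttn), and the midpoint a median distance of 1918 nt from the stop codon (quartiles 1147 and 3420 nt). In 81.7% of cases the host exon was the longest non-terminal exon of its transcript. The rule itself favours such exons, since the 7785 eligible exons lie in 6320 genes. The same share over all eligible exons was not taken. Where another annotated transcript of the gene spanned the midpoint, at least 1 skipped it for 19.4% of 2299 members, 14.2% of 247 peaks in short exons and 16.9% of 848 peaks in last exons, which was not tested. Along the CDS, members per kb of eligible sequence went from 0.456 (0.427 to 0.487) in the first 25% to 0.511, 0.555 and 0.592 (0.526 to 0.664) in the following parts.

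First exons differed from the others in density, in list and in base composition. The 382 members in first exons stood at 0.289 per kb (0.261 to 0.320), against 0.606 per kb (0.581 to 0.632) for 2162 members in internal exons and 0.411 per kb (0.362 to 0.466) for 250 members in other exons just before the last. Only 35.9% (31.2 to 40.8%) of first-exon members belonged to Cfg1, against 65.1% (63.1 to 67.1%) of internal-exon members. In first exons the median GC content within 50 nt of the midpoint was 54.5% in Cfg1 and 67.3% in Cfg2, and in internal exons 50.5% and 54.5%. Across all members the Cfg1 share was 65.4% under 40% GC, 70.4% from 40 to 50%, 69.6% from 50 to 60% and 30.5% above, so that the GC-rich members were mostly those that the Abcam antibody had not called. These differences were not tested.

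Members were sparse near splice junctions. Only 130 of 2794 (4.65%, 3.93 to 5.50%) had a midpoint within 100 nt of the nearest junction, although 18.3% of the eligible positions of the same exons, weighted by their members, lie that near, a difference of -13.7 points (-14.4 to -12.8). Their density was 0.0511 per kb within 50 nt of a junction, 0.184 at 50 to 99 nt, 0.557 at 100 to 149 nt and at most 0.761 at 300 to 399 nt, and it was lower again, 0.353 per kb, in the interior beyond 1000 nt. Distance from a junction and exon length both went with density: 100 nt or more from a junction there were 0.606 peaks per kb in long exons and 0.101 (0.0835 to 0.122) in short exons, and nearer than 100 nt 0.118 (0.0986 to 0.140) and 0.00838 (0.00714 to 0.00977). An interval is placed here by its midpoint and can be up to 250 nt wide, and the part of interval width in the low density at exon ends was not tested. Cfg1 members had a midpoint within 100 nt of a junction in 3.95% of cases (67 of 1695) and Cfg2 members in 5.73% (63 of 1099), a difference of -1.78 points (-3.52 to -0.174) that missed the threshold after adjustment, with an adjusted p of 0.0501 by Fisher's exact test. It passed the same exact test with a distance of 50 nt (adjusted p = 0.0488) and of 200 nt (adjusted p = 0.00189).

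The 2 ends of the exon were not alike. A first exon has no junction at its 5' end, so first exons enter only the counts from the 3' end. Their part in the difference between the ends was not tested. Counted from the junction at the 5' end, SySy-called density went from 0.0833 per kb within 50 nt to 0.136, 0.320 and 0.447 over the next 3 steps of 50 nt and reached 0.788 at 300 to 399 nt. Counted from the junction at the 3' end it was 0.0337 within 50 nt and 0.213 at 50 to 99 nt, and already 0.708 (0.620 to 0.804) at 100 to 149 nt, above the 0.320 (0.248 to 0.405) at the same distance from the 5' end. Abcam-only peaks of long exons had a different outline, with 0.172 per kb within 50 nt of the 5' end, about the level of the exon body, and 1 peak within 50 nt of the 3' end (0.00281 per kb). Among 1736 members in exons that were coding and eligible from end to end, 9.74% lay in the first 20% of the exon, 21.5%, 25.2% and 27.1% in the next parts and 16.4% in the last 20%.

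**Figure D2:**
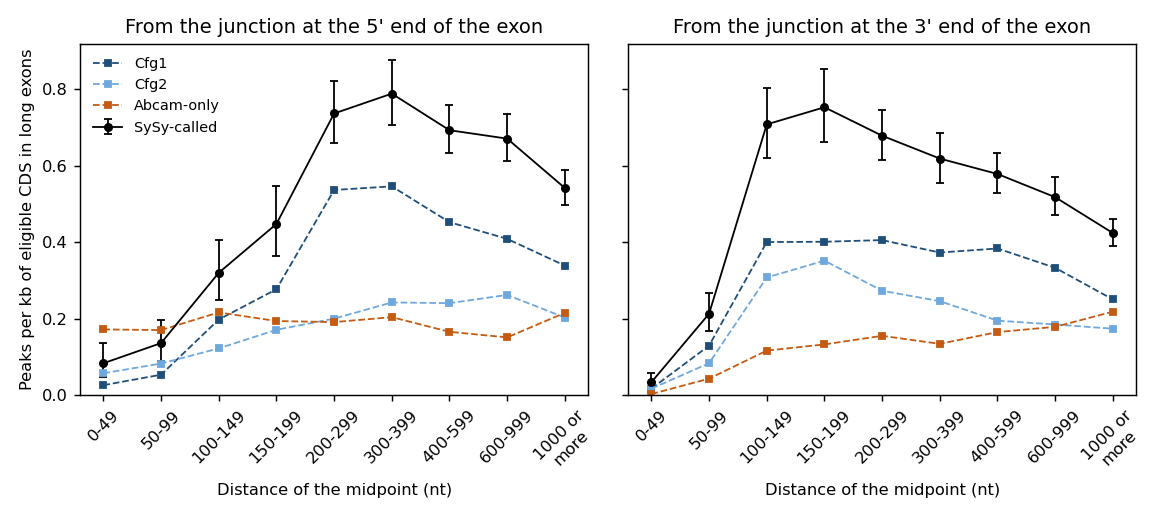
Peaks per kb of eligible CDS in non-terminal exons of 400 nt or more, by distance of the midpoint from the junction at the 5' end (left) and at the 3' end (right) of the exon, for all SySy-called peaks with exact Poisson 95% intervals and for Cfg1, Cfg2 and Abcam-only peaks without them. SySy-called density reached 0.708 per kb at 100 to 149 nt from the 3' junction but 0.320 per kb at that distance from the 5' junction. First exons enter only the right panel.

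Members came in runs. Of the 1288 host genes, 631 had 1 member, 317 had 2, 277 had 3 to 5 and 63 had 6 or more, and of the 1491 host exons 812 had 1, 383 had 2 and 296 had 3 or more. The mean per host exon was 1.28 at 400 to 699 nt, 1.68 at 700 to 999 nt, 2.06 at 1000 to 1999 nt and 3.41 at 2000 nt or more, where an exon held up to 14. Neighbours in an exon had a median spacing of 210 nt between midpoints (1303 pairs, quartiles 163 and 353 nt), and 78 pairs were more than 1000 nt apart. Of the members, 1592 (57.0%) were pieces of a broader call that the authors had split between summits, and the 2794 members went back to 1880 calls. Cfg1 members shared their exon with another member in 73.6% of cases and Cfg2 members in 66.9%, a difference of 6.69 points (3.22 to 10.2) with an adjusted p of 0.000345 by Fisher's exact test. The comparison changed with the splitting and with first exons. With 1 peak per broader call, a setting chosen after seeing the data, the exact test gave a difference of -1.59 points (adjusted p = 0.491), with 1 peak per broader call and list, since a call could have pieces in both lists, -4.39 points (adjusted p = 0.0674), and without first exons 1.65 points (adjusted p = 0.392).

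**Figure D3:**
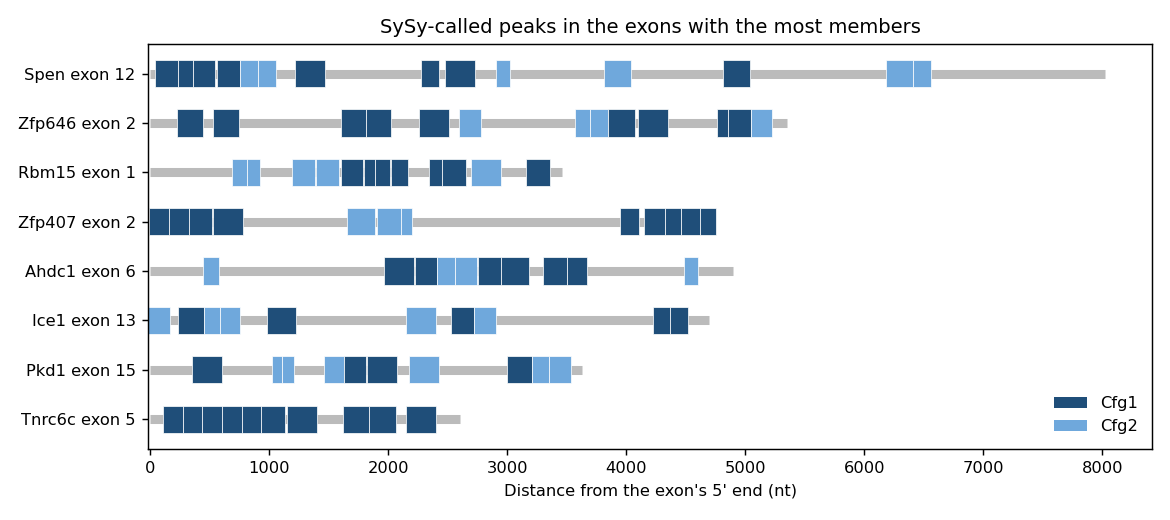
Deposited intervals of members (Cfg1 dark, Cfg2 light) along the 8 exons with the most members, each drawn to scale as a grey bar from the exon's 5' end in nt. The exons are 2601 to 8020 nt long and hold 10 to 14 members, in blocks of adjoining intervals separated by stretches without a member, and the 10 intervals of Tnrc6c all belong to Cfg1. Abcam-only peaks are not drawn.

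The 15 genes with the most members had 10 to 16 each and code for proteins of 962 to 5588 codons. Kmt2d, a histone H3 lysine 4 methyltransferase, had 16 members (11 Cfg1, 5 Cfg2) in 4 of its 55 exons, with 7 in exon 35 and 6 in exon 40. Spen, an RNA-binding transcriptional corepressor that acts in X inactivation, also had 16, 14 of them in exon 12 (chr4:141471370-141479389, minus strand, 8020 nt). There the midpoints ran from 140 to 6485 nt of the exon, so that its 3' end was bare of members, and the intervals covered 32.1% of the exon. It also held 5 Abcam-only peaks, whose places are not given here. Rnf213, a very large E3 ubiquitin ligase, had 14 in 3 exons, and Cenpf, a kinetochore protein, had 13 in 3 exons, 9 of them Cfg2. Fat1, an atypical cadherin, had 12 spread over 5 exons, Mtcl1, a microtubule crosslinking factor, 12 over 3, and Pkd1, polycystin-1, 12 over 2. In 7 of the 15 genes with the most members a single exon held all of them. Of these 7 genes only Ice1 has more than 1 eligible long exon, namely 2. In the others the rule left no second exon for a member.

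These counts are of pieces, and the broader calls behind them were fewer: 8 in Kmt2d and Spen, 6 in Rnf213 and Cenpf, and 5 in Mtcl1 and Pkd1, against 9 in Fat1.

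In the single exons the members went back to 2 to 5 calls each. Zfp646, a zinc-finger protein of 1788 codons, carried 13 members (9 Cfg1) in exon 2 (chr7:127878570-127883918, plus strand, 5349 nt), over 47.1% of the exon, and 8 of its 9 eligible GGACT lay in members, which went back to 5 calls. With the longest transcript of each gene in place of the longest CDS, Zfp646 had no member. Zfp407, another zinc-finger protein, carried 12 (9 Cfg1) from 3 calls in an exon of 4720 nt. Tnrc6c, a GW182 scaffold of microRNA silencing, carried 10, all Cfg1 and from 2 calls, over 75.3% of exon 5 (chr11:117720950-117723550, plus strand, 2601 nt), and 5 of the 6 GGACT of the exon lay whole in an interval. Tti1, a chaperone cofactor of the phosphatidylinositol 3-kinase-related kinases, carried 10 (4 Cfg1) from 2 calls in exon 2 of 2340 nt, 2 of them with a GGACT. Ice1, of the little elongation complex, carried 10 from 5 calls in exon 13 with 2 of 4 GGACT inside, and Ahdc1, an AT-hook protein, 10 from 3 calls in exon 6 with 7 of 11 inside. Zfp516 had 10 members from 5 calls in 2 exons. Very long exons could have few members or none. Exon 309 of Ttn, the longest host exon, had 3, exon 22 of Stard9 (9837 nt) had 2 and exon 5 of Map1a (8104 nt) had 2. They held 5, 1 and 5 Abcam-only peaks. Exon 10 of Unc13b (8367 nt) and exon 11 of Srrm2 (6569 nt) had no member although their genes carried a SySy-called peak elsewhere, and the Srrm2 exon held 1 Abcam-only peak. Exon 12 of Mki67 (6836 nt), a proliferation marker, had no member but 8 Abcam-only peaks.

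The m6A machinery itself carried members in 9 of the 15 genes that have an eligible exon. The background was 20.4% of all coding genes with an eligible exon (1288 of 6320). The 15 machinery genes held 38 members, with a median of 3 per gene against 0 in the background. That background takes in genes of any RNA level, and the part of RNA level was not tested. Among the 1021 background genes with a SySy-called peak at the stop codon or in the 3' UTR, 45.2% had a member. Of the machinery genes, 4 had such a peak, and all 4 had a member. Rbm15, the adaptor of the methyltransferase complex, had 12 (7 Cfg1, 5 Cfg2) from 3 calls, all in its first exon (chr3:107330215-107333673, minus strand, 3459 nt), which holds almost the whole CDS of 962 codons. They lay 750 to 3256 nt from the exon's start and covered 56.3% of it, with 2 GGACT in all. Virma, the scaffold of the same complex, had 4 members in exons 8, 10 and 14, and Zc3h13, which holds the complex in the nucleus, had 3, all Cfg1, in exons 10 and 15. Of the cytoplasmic readers, Ythdf2 had 3 members, all Cfg1, at 360, 1040 and 1359 nt of its exon 4 of 1584 nt. Ythdf1 had 3, all Cfg2, at 284, 602 and 1340 nt of its exon 5 of 1521 nt, and Ythdf3 had 4 (1 Cfg1) in its exon 5. In each of the 3 readers the members lay in a single long internal exon. The rule fixed this for Ythdf1 and Ythdf3, which have 1 eligible long exon each, while Ythdf2 has 2. The antibody support differed between the readers, and the last member of Ythdf1 lay 205 nt from the stop codon, at the edge of the rule. Both erasers had members too: Alkbh5 had 2 in its first exon, both Cfg2, and Fto had 3 in exon 3 of 619 nt. Prrc2a, described as a reader, had 4 in exon 16.

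Other gene lists, drawn up with earlier results of these data known, are described by their counts. Among histone lysine methyltransferases 18 of 20 genes with an eligible exon had a member (90.0%, 77 members, median 2.5), led by Kmt2d, Setd2 with 9 and Ash1l with 7 members. Per kb of eligible CDS, which takes the length of these genes into account, they stood at 1.22 members against 0.508 over all coding genes. Histone acetyltransferases and coactivators had members in 12 of 14 (1.32 per kb), with Ncoa6 at 5, and DNA repair genes in 19 of 23 (1.46 per kb), with Fancm and Zgrf1 at 7 and Mdc1 at 6. Centromere and mitotic kinesin genes stood at 12 of 17 (1.23 per kb), with Cep192 and Pcnt at 6, and histone lysine demethylases at 8 of 14 (1.12 per kb), with Kdm6b at 5. Ubiquitin-specific proteases had members in 15 of 24 (1.08 per kb) and Zbtb zinc-finger genes in 11 of 20 (0.988 per kb). Chromatin remodellers had them in 11 of 20 (0.889 per kb), with Bptf and Chd6 at 5. MicroRNA silencing genes had the highest density of the lists with more than 2 such genes, 2.41 per kb over 5 of 8 genes, with 7, 8 and 10 members in 1 exon each of Tnrc6a, Tnrc6b and Tnrc6c. Counted by broader calls they stood at 0.964 per kb, below the 1.21 of the m6A machinery, against 0.342 over all coding genes. Spen and Rbm15, which share the SPOC domain, together had 28.

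Among the remaining lists, adhesion and DNA methylation genes lay under the 0.508 members per kb of all coding genes, while their shares of genes with a member were above the 20.4% of all. Adhesion genes have 84.7 kb of eligible CDS and had members in 6 of 21 genes (28.6%, 0.378 per kb, median 0), mostly in Fat1, Celsr1 (9) and Celsr3 (6). The giant cytoskeletal and scaffold genes had members in 16 of 24 (66.7%, 0.649 per kb), with Rnf213, Macf1 (8) and Dst (7) in front. DNA methylation genes had 2 of 9, Mbd4 and Tet3 (22.2%, 0.169 per kb), and Polycomb genes 5 of 13 (38.5%, 0.545 per kb). Among pluripotency factors 9 of 15 had a member (0.952 per kb): Klf4 had 4 and Klf2 3, all of them Cfg2, and Sall1 had 2, both Cfg1. Ribosomal protein genes offer 0.105 kb of eligible CDS in 4 genes and had none, which is too little sequence to set against the density of all coding genes. The RNA level of each gene is not known from the lists, and its part in these counts was not tested.

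**Figure D4:**
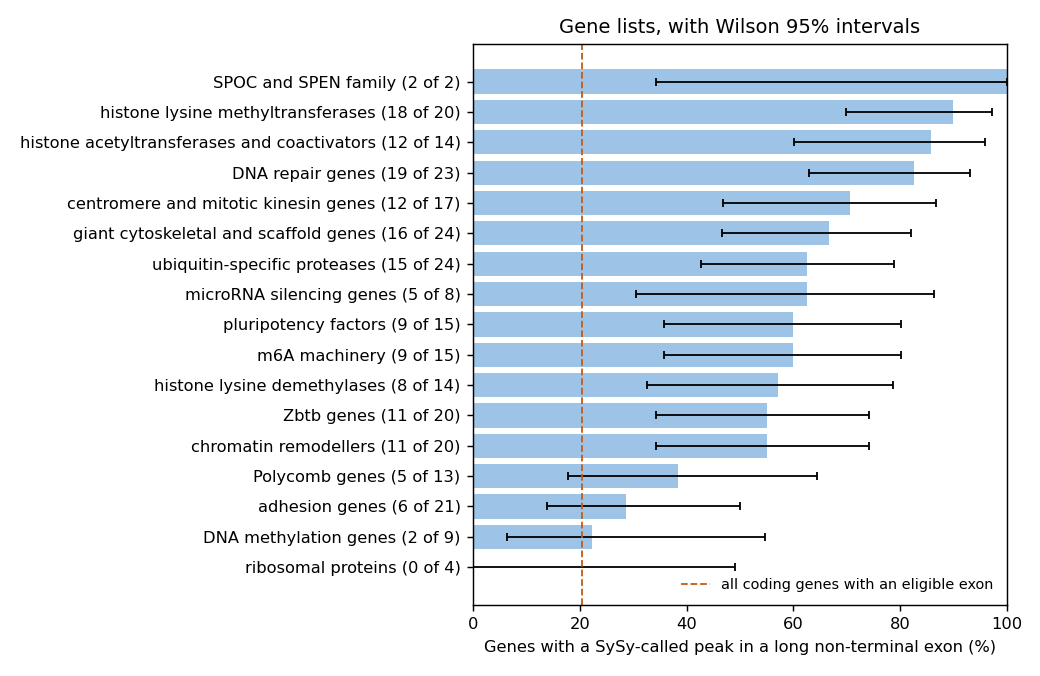
Share of genes with at least 1 member among the genes of each list that have an eligible long exon, with Wilson 95% intervals (counting error only); counts stand beside the names. The dashed line is the share over all coding genes with an eligible exon, 20.4%. Shares run from 0 of 4 ribosomal protein genes to 18 of 20 histone lysine methyltransferases and 2 of 2 SPOC family genes.

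Host genes and genes methylated at the stop codon overlapped in part. A SySy-called peak within 200 nt of the stop codon or in the 3' UTR was present in 461 of the 1288 host genes (35.8%). Read the other way, 45.2% of the 1021 genes with such a peak and an eligible long exon had a member. The share was 15.6% of the 5299 genes with an eligible exon and no such peak. Those 5299 genes may include some whose RNA was out of reach of the calling. The part of RNA level in this gap was not tested. For 695 host genes (54.0%) the members were the only SySy-called peaks in exons of the representative transcript. Abcam-only peaks fell in host exons in 456 of 835 cases, and the exons with such peaks and the host exons had 299 in common, 20.1% of the host exons and 52.9% of the 565 exons with Abcam-only peaks.

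The consensus pentamer was more frequent in members than in their host exons as a whole, a comparison given without a test. The tiled windows used below take in the members themselves. On the transcript strand, GGACT occurred in a window reaching 50 nt to either side of the midpoint in 635 members (22.7%, 21.2 to 24.3%), and in 12.1% of 16039 adjoining windows of that length tiled over the same exons, 10.8% of 50611 windows tiled over all eligible long exons and 10.9% of windows over short exons. Over whole intervals and counted by their A, members held 1173 GGACT, or 2.32 per kb, against 0.918 per kb in the rest of the host exons. They covered 29.8% of the eligible bases of those exons and took in 51.8% of their GGACT. Even so, 65.6% of intervals held none, 787 held 1, 175 held 2 or more, and the most was 6. AGTCC, which is GGACT read on the opposite strand, was in 8.09% of member windows and 11.2% of the tiled windows of host exons. The other pentamers searched were also more frequent in members: GGACA in 23.1% against 16.0% of the tiled windows of host exons, GGACC in 18.8% against 13.6%, AGACT in 21.2% against 13.2%, GAACT in 15.2% against 11.1% and TGACT in 15.3% against 10.5%. GGAC, the core that several of these contain, was in 57.3% of member windows and in 6416 of the 16039 tiled windows, and any of the 6 pentamers in 77.6% against 56.1%. A match is a description of the window and not a mapped site.

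In the reading frame the pentamers of members were placed like those outside. The first G was at position 3 of a codon in 52.1% (49.2 to 54.9%) of the 1173 GGACT in members, in 52.2% (49.2 to 55.1%) of the 1091 in host exons outside members and in 52.1% of the 6547 in all eligible long exons. The pentamers were not centred on the midpoint. In Cfg1 members they stood at 2.81 to 3.04 per kb in the 25 nt steps from 75 nt upstream to 25 nt downstream, and at 2.08 per kb from 100 to 75 nt upstream against 1.56 per kb from 75 to 100 nt downstream. In Cfg2 the last pair of values was 1.93 and 0.764 per kb.

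**Figure D5:**
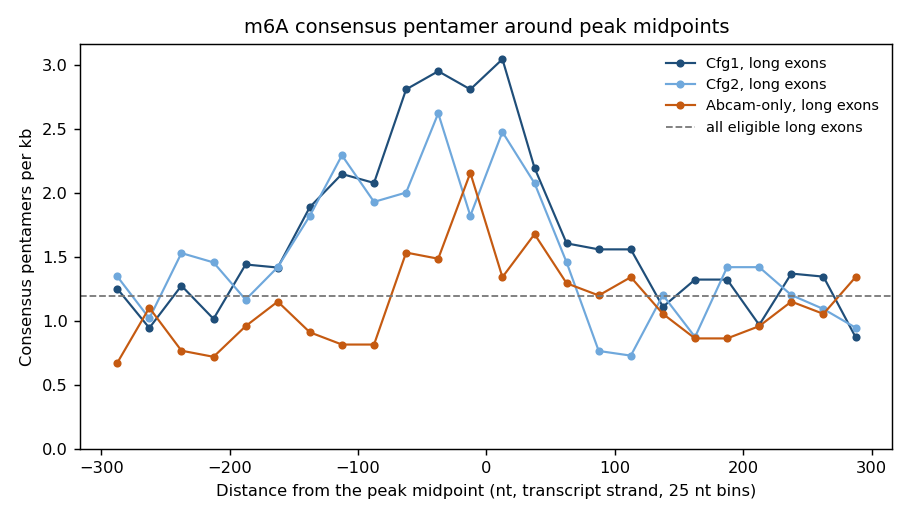
GGACT per kb in steps of 25 nt around the midpoint of Cfg1, Cfg2 and Abcam-only peaks in long non-terminal exons, on the transcript strand with upstream to the left. The dashed line is the mean over all eligible long exons, 1.19 per kb. Cfg1 peaks reached 3.04 per kb beside the midpoint, and the rise extended further upstream than downstream in both SySy lists.

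Against other peaks, members held the pentamer more often than peaks of last exons and Abcam-only peaks. In last exons 17.0% of 1275 SySy-called coding peaks had GGACT in the window, 5.71 points fewer (3.07 to 8.23), and the adjusted p by Fisher's exact test was 7.22e-05. Among the 835 Abcam-only peaks of long exons 15.1% did, 7.64 points fewer (4.64 to 10.4, exact test, adjusted p = 4.8e-06). In short exons 26.5% of 275 did, and the difference of -3.82 points (-9.54 to 1.31) did not pass the exact test (adjusted p = 0.176). Cfg1 members had GGACT in 24.1% of windows and Cfg2 members in 20.7%, a difference of 3.42 points (0.234 to 6.52) with an adjusted p of 0.0501 by Fisher's exact test. Counted over the whole interval, which is wider in Cfg1, the exact test gave 9.51 points (adjusted p = 5.9e-07), and among windows under 60% GC, a setting chosen after seeing the data, 6.03 points (adjusted p = 0.00226). Base composition moved with the motif: the share of members with GGACT was 9.76% under 40% GC, 20.2% from 40 to 50%, 24.6% from 50 to 60% and 27.9% above, and in each of the 4 classes Cfg1 had the higher share, 10.6% against 8.24%, 23.4% against 12.7%, 25.5% against 22.7% and 31.9% against 26.1%. The lists lay further apart than for GGACT in GGACA, at 26.5% of Cfg1 against 17.7% of Cfg2, in AGACT, at 24.2% against 16.7%, in GAACT, at 17.5% against 11.6%, and in TGACT, at 16.9% against 12.9%, whereas GGACC, the most GC-rich of the pentamers, was in 18.1% of Cfg1 and 220 of 1099 Cfg2 windows. These last differences were not tested.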

How the data were processed

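What was analysed were the 3 lists of stranded intervals, as the authors deposited them. Their deposited score was 0 for each peak, so no height was given, and 1 strand field with a stray character was read by its first character. The submitters' processing notes name MACS2 2.1.1 and HOMER, and the methods describe calling on the pooled duplicates of each antibody against input, after which peaks were split between summits and trimmed to 125 nt on either side of a summit. Coordinates are mm10 and count from 1.

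Peaks were placed by midpoint on GENCODE vM21, an earlier release than the vM24 of the study, and sequences were read from GRCm38.p6, from which 1463 of 1463 checked transcripts were spliced identical to their annotated sequence. Eligible CDS means coding bases more than 200 nt upstream of the stop codon. Shares were compared by 8 Fisher's exact tests, two-sided, with Benjamini-Hochberg adjustment over all 8 and a threshold of 0.05, with Wilson and Newcombe 95% intervals, and densities carry exact Poisson 95% intervals. Motifs were searched on the transcript strand within 50 nt of the midpoint. The class assignment, the test and the intervals were tested on simulated data.

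The members, the 17 gene lists, the tests and the naming rule were chosen with earlier results of these data known. The genes named are the 15 with the most members, all m6A machinery genes with a member and the 3 leading genes of each other list, with some left unnamed. Exons named are the 8 with the most members and the 5 longest with and without one, some of which were left unnamed too, and intervals shown are a choice from those of Ythdf1, Ythdf2, Rbm15 and the genes with the most members, and others are not shown. Alternatives covered the transcript, the exon length, the stop and junction distances, placement, first exons, 1 peak per gene, the motif and its window. The scripts ran in Python 3.11.15 and used numpy 2.4.6, scipy 1.17.1, pysam 0.24.0 and matplotlib 3.10.9.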

Additional observations from a re-analysis of the deposited data

How the results depend on the processing

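No paired analysis was possible because the lists hold pooled duplicates with no value per library. For the same reason no replicate could be left out and no stricter threshold could be set on the calls. The number of members stayed within 1.5 times under every alternative tried, and the difference in Cfg1 share between long and short exons and the excess of GGACT over last exons and over Abcam-only peaks kept their direction and passed the test under each alternative run. The density ratio of long over short exons was 56.1 at an exon length of 300 nt, 25.6 at 500 nt, 71.2 with whole intervals inside the exon, 46.0 without first exons, 31.5 in genes with a peak at the stop codon or in the 3' UTR, 27.4 with 1 peak per broader call and 30.1 with 1 per broader call and list. The difference between members and positions near a junction was -14.4 points at an exon length of 300 nt, -16.2 with whole intervals, -7.96 at 50 nt and -9.76 at 200 nt. The whole-interval setting dropped peaks that cross an exon end but kept all eligible bases. It left 2685 of 2794 peaks in long exons and 141 of 275 in short exons. The 71.2 and the -16.2 points were therefore shifted by the filter itself and are no check on these results. The GGACT difference between long and short exons turned to 4.33 points at an exon length of 300 nt, 1.70 over the whole interval and 5.34 for GGAC, and passed the test at -6.51 (500 nt), -6.01 (stop distance of 400 nt) and -11.4 points (whole intervals in the exon). The Cfg1 share over last exons was 4.04 points at a stop distance of 400 nt and 3.81 without first exons, both past the test, and -0.651 with 1 peak per gene. The GGACT difference of Cfg1 over Cfg2 passed the test at 4.67 (exon length of 500 nt), 3.46 (stop distance of 400 nt), 4.38 (no first exons), 6.32 (100 nt either side), 9.51 (whole interval), 5.57 (GGAC) and 6.03 points (under 60% GC, added after seeing the data). The junction difference of Cfg1 from Cfg2 passed at -1.90 (longest transcript), -1.91 (300 nt exons), -2.11 (no first exons), -3.07 (1 peak per gene), -0.898 (50 nt) and -5.66 points (200 nt). The difference in shared exons no longer passed at 1.65 points without first exons and 3.62 with 1 peak per gene, and turned to -1.59 with 1 peak per broader call and -4.39 with 1 per broader call and list, both also added after seeing the data. Except for settings that change the sample or window by construction, the cause was not tested. Counts of members of the 23 genes followed moved by more than 1.5 times in 33 of 207 cases, most of them with 1 peak per broader call, with or without the list.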
